A study of Mus musculus with 24 samples.

Results

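The aryl hydrocarbon receptor (AhR) pathway was examined through 8 genes among the 26264 genes of the count table. The 8 were taken by symbol as the receptor (*Ahr*), its dimer partner (*Arnt*), its repressor (*Ahrr*), and targets of the receptor (*Cyp1a1*, *Cyp1a2*, *Cyp1b1*, *Tiparp*, and *Nqo1*). They were chosen with earlier results of these data known, and each is described whatever its values. All 8 were present and passed the filter on low counts in both clones, although *Ahrr* and *Cyp1a2* lay close to the detection floor without auxin. *Cyp1a1* was the member with the largest fold change under auxin, from 0 to 20 counts per library to 265 to 637, followed by *Cyp1b1*, in both clones. *Tiparp* and *Nqo1*, which had at least 1500 counts in every library without auxin, rose by a smaller fold than *Cyp1a1* and *Cyp1b1*, and *Arnt* passed no test of the auxin effect.

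The study asked whether 2 enzymes that erase Polycomb marks are needed for gene induction by retinoic acid (RA). BAP1-AID and UTX-AID are mouse embryonic stem cell (ESC) clones in which the deubiquitinase BAP1 or the demethylase UTX (gene *Kdm6a*) carries an HA-AID degron tag, and both stably overexpress the ubiquitin ligase adaptor TIR1. Indole-3-acetic acid (IAA), a plant auxin dissolved in ethanol, leads TIR1 to the tag and so to degradation of the tagged protein. Each clone was sequenced as poly(A) RNA without IAA (−IAA) and with IAA (+IAA, given before RA) at 0, 3, and 6 h of RA in medium without leukemia inhibitory factor, with 2 replicates in each of 12 groups. All 24 libraries, the −IAA ones included, thus came from cells that carry the tag and TIR1. Within a clone, IAA itself and loss of the tagged protein cannot be told apart, and each tagged protein is represented by 1 clone. Among the +IAA libraries, the hours of RA also count hours of longer contact with IAA, so the time courses under IAA cannot be told apart from the duration of IAA. The sources used here do not name a vehicle for the −IAA cells or say whether replicates came from separate cultures, and p-values then measure the spread between these libraries, which may be technical.

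AhR is a ligand-activated transcription factor of the basic helix-loop-helix PAS family that rests in the cytosol with HSP90 and p23. Its ligands include dioxins, polycyclic aromatic hydrocarbons, and several indoles derived from tryptophan; once bound, it enters the nucleus, pairs with ARNT, and binds DNA at a short core (GCGTG) before genes of xenobiotic metabolism. The products of some targets act back on it: AHRR competes for ARNT, TIPARP ADP-ribosylates the receptor, and CYP1 enzymes metabolize many of its ligands.

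The total estimated count per library was 42018795 to 54034789. CPM are counts scaled to 1000000 of that total after its adjustment by the TMM factor of the library (0.965 to 1.03), so that a floor of 3 counts corresponded to 0.0545 to 0.0695 CPM. The summed level of 8 ESC markers (among them *Pou5f1*, *Sox2*, and *Nanog*) was 3530 to 4400 CPM, against 2.47 to 13.9 CPM for 8 fibroblast markers, 20.7 to 36.9 CPM for 8 primitive endoderm markers, and 0.435 to 4.54 CPM for 6 hepatocyte markers, of which *Alb* was at 0 in every library. In BAP1-AID, 3 ESC markers passed lower with IAA (*Esrrb*, *Nanog*, and *Pou5f1*), where 36.1% of genes passed in either direction. After a correction for GC content and length *Nanog* passed (-0.50, adjusted p = 7.15e-05), and *Esrrb* and *Pou5f1* did not (-0.093 and 0.052, adjusted p = 0.0611 and 0.0601). The part of this in the results was not tested. The transcripts of the tagged genes were present in every library, with *Bap1* at 93.3 to 105 CPM in BAP1-AID and *Kdm6a* at 93.5 to 125 CPM in UTX-AID; the tag acts on the protein, so these levels do not check the labels. In BAP1-AID the IAA effect fell with GC content across genes (Spearman rho of -0.472 over 15168 genes, which are not independent), and in UTX-AID the same rho was 0.0226. A value corrected for GC content and transcript length is therefore given beside results of the members in BAP1-AID that it moves across the threshold.

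The DNA in front of the members differed in how many copies of the AhR core it holds. In the 2000 bases before the RefSeq start, a longer form of the motif (TNGCGTG, either strand) occurred at least once in 20.6% of 15111 gene regions, and the bare core GCGTG, which every longer form contains, in 74.5%. Ahr had no RefSeq promoter entry, and for the other 7 members the region was placed on GRCm39 by an exact match. *Cyp1a1* held 12 cores, of which 7 were the longer form, a number reached by 0.00662% of all regions. *Cyp1b1* also held 12 cores, 3 of them longer (as many or more in 0.291% of regions), and 2 of its cores overlap as an inverted pair. *Ahrr* held 6 cores with 2 longer (2.91% of regions), and *Tiparp* and *Nqo1* held 1 longer form each (20.6% of regions), beside 7 and 1 cores in all. *Arnt* and *Cyp1a2* held 1 and 2 cores, with 0 of the longer form. A match is a description of these letters and not a bound site.

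The 14 longer sites are printed because they lie before the 5 members that passed the test of IAA in at least 1 clone and had a region to search, apart from the receptor itself. Each run is 25 bases of GRCm39 (mm39), read 5′ to 3′ on the named strand, with the core in capitals. The position counts from the RefSeq start to the base of the core that lies farthest from it, whichever strand is printed. Of the 14, 6 lie in an annotated exon of GENCODE vM39, whose transcripts of *Cyp1a1* and *Tiparp* begin further upstream than the RefSeq start.
Cyp1a1 at -1384, chr9:57603502-57603526, minus strand: tctgaacttgGCGTGtctaactcaa
Cyp1a1 at -1208, chr9:57603678-57603702, minus strand: ggccgggtttGCGTGcgatgctcgg
Cyp1a1 at -1061, chr9:57603825-57603849, plus strand: cccccagctaGCGTGacagcactgg
Cyp1a1 at -986, chr9:57603900-57603924, minus strand: ccccggagttGCGTGagaagagcct
Cyp1a1 at -897, chr9:57603989-57604013, minus strand: cctgaggctaGCGTGcgtaagcctg
Cyp1a1 at -824, chr9:57604062-57604086, plus strand: ctgctgtctcGCGTGgatccttcct
Cyp1a1 at -493, chr9:57604393-57604417, minus strand: gtccaagctcGCGTGagaagcgcaa
Cyp1b1 at -1683, chr17:80024159-80024183, plus strand: acacacacttGCGTGtacataagtg
Cyp1b1 at -873, chr17:80023349-80023373, plus strand: gctgtgccttGCGTGcgccgcttct
Cyp1b1 at -854, chr17:80023330-80023354, plus strand: cctcccccttGCGTGcggagctgtg
Ahrr at -373, chr13:74440809-74440833, plus strand: ccaagacttaGCGTGttcctccttt
Ahrr at -27, chr13:74440463-74440487, minus strand: ggggcggctcGCGTGctggggtggg
Tiparp at -409, chr3:65435449-65435473, plus strand: ctctcacatcGCGTGcccgggtgtc
Nqo1 at -385, chr8:108130208-108130232, minus strand: ccttcccctaGCGTGcaaaggtgac

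**Figure D1:**
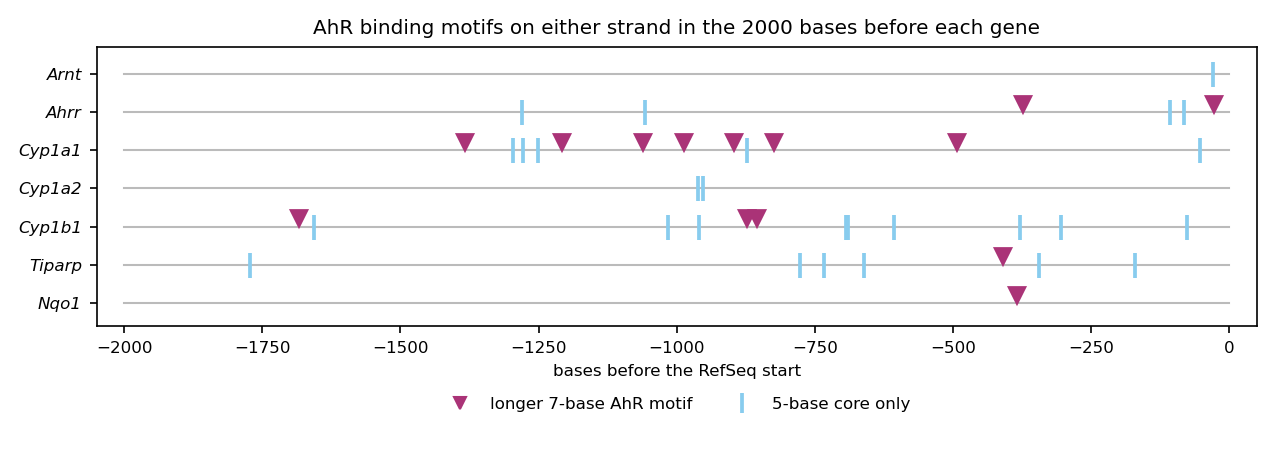
Positions of the AhR motif in the 2000 bases before the RefSeq start of 7 members, with the x axis in bases before the start (0 at the right). Triangles are the longer 7-base form and ticks the 5-base core alone, on either strand; *Cyp1a1* carries 7 triangles, *Cyp1b1* 3, *Ahrr* 2, *Tiparp* and *Nqo1* 1 each, and *Arnt* and *Cyp1a2* carry ticks without a triangle.

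Without IAA, the 8 members covered a wide range of levels. Per kilobase of transcript, the order in BAP1-AID was *Arnt* at 30.3 ± 3.6 CPM/kb (SD, n = 6 libraries over the 3 RA times), *Nqo1* at 22.8 ± 4.07, *Tiparp* at 7.28 ± 1.08, *Ahr* at 1.77 ± 0.534, *Cyp1b1* at 0.198 ± 0.0841, *Cyp1a1* at 0.0601 ± 0.0341, *Ahrr* at 0.0455 ± 0.0386, and *Cyp1a2* at 0.0351 ± 0.0546. The libraries of *Arnt* and *Nqo1* overlapped, as did those of the last 3 genes, and the other neighbours in this order did not overlap. In UTX-AID, *Nqo1* (24 ± 1.5 CPM/kb), *Tiparp* (20.5 ± 1.36), and *Arnt* (19.4 ± 1.72) formed an overlapping top, *Ahr* lay at 1.11 ± 0.31, and *Cyp1a1*, *Cyp1a2*, *Cyp1b1*, and *Ahrr* overlapped between 0.0361 and 0.0715 CPM/kb. With IAA, *Cyp1a1* reached 2.67 ± 0.295 CPM/kb in BAP1-AID, overlapping the receptor at 2.12 ± 0.439. In UTX-AID it reached 2.46 ± 0.7 CPM/kb, where the receptor lay at 1.18 ± 0.332. There the lowest library of *Cyp1a1* (1.62) and the highest of *Ahr* (1.63) just overlapped. *Cyp1b1* reached 1.72 ± 0.475 and 0.489 ± 0.228 CPM/kb.

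**Figure D2:**
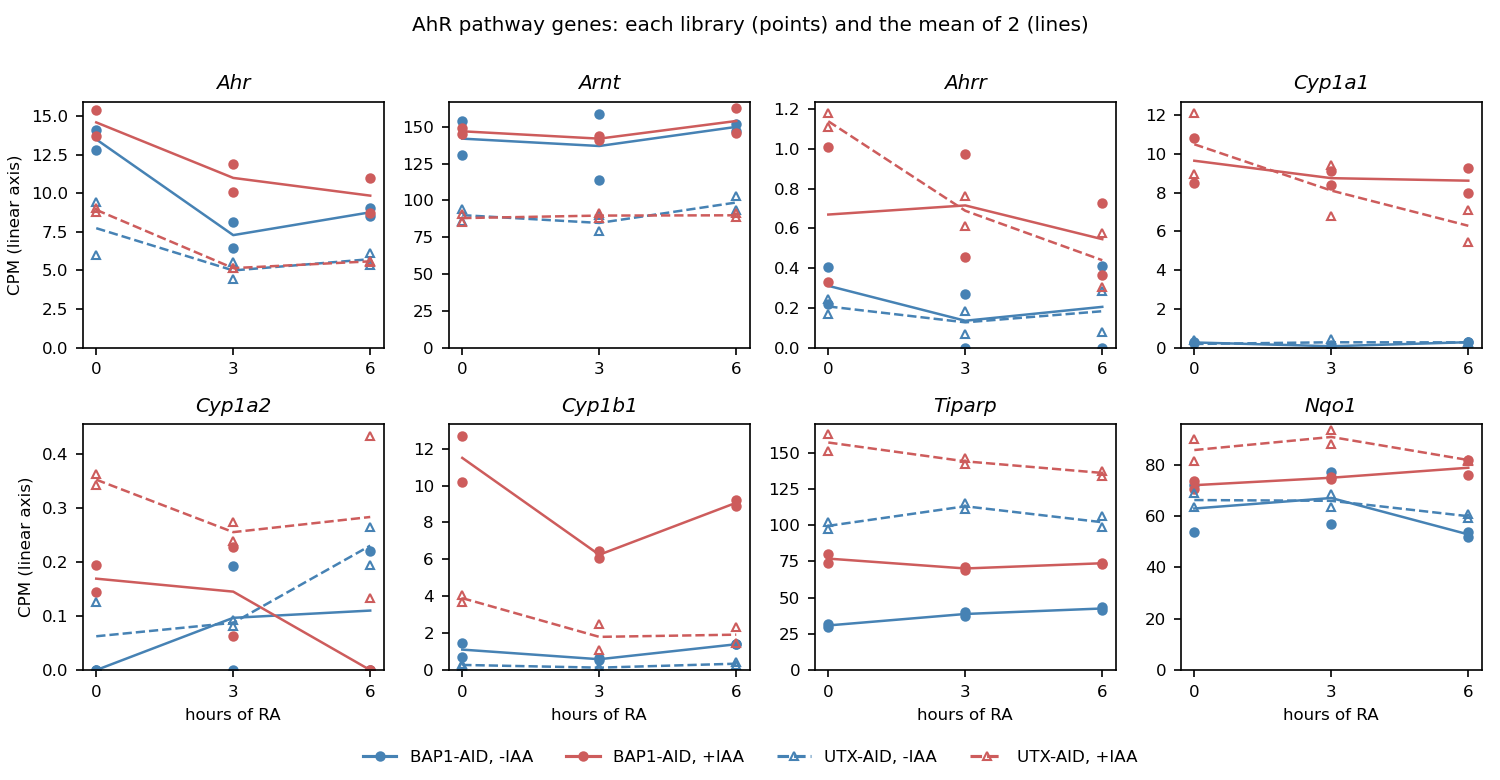
CPM (linear y axis from 0) of the 8 members against hours of RA, with a point for each of the 24 libraries and a line through the mean of 2 replicates; filled circles and solid lines are BAP1-AID, open triangles and dashed lines UTX-AID, blue −IAA and red +IAA. Red points of *Cyp1a1* lie between 5.46 and 12.1 CPM and blue points at or below 0.463 CPM, whereas the red and blue points of *Arnt* mix.

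The receptor itself (chr12:35547973-35585057, minus strand, 11 exons) was measured at 216 to 750 counts per library. In BAP1-AID without IAA, *Ahr* had 667 and 717 counts at 0 h of RA, 312 and 420 at 3 h, and 449 and 437 at 6 h. With IAA the counts were 705 and 750, 571 and 489, and 559 and 429 at the same times. The +IAA libraries lay above the −IAA libraries at 3 h, and the arms overlapped at 0 and 6 h. Averaged over RA times, the quasi-likelihood test of edgeR, adjusted by Benjamini-Hochberg over 15695 genes, gave a log2 fold change of 0.27 ± 0.0865 (SE, adjusted p = 0.0267), which was 0.14 with an adjusted p = 0.189 after the GC and length correction and did not pass in 6 of 12 fits that left out 1 library. Those were replicate 2 at 0 h and replicate 1 at 3 and 6 h of the +IAA libraries, and replicate 1 at 0 and 3 h and replicate 2 at 6 h of the −IAA libraries (0.22 to 0.28, adjusted p = 0.0552 to 0.0732). At 3 h alone it was 0.59 ± 0.152 (adjusted p = 0.026), or 0.42 (adjusted p = 0.0852) after that correction, and it did not pass without either +IAA library at 3 h (0.47 and 0.70, adjusted p = 0.177 and 0.0569) or without replicate 1 of the −IAA libraries at 3 h (0.43, adjusted p = 0.139).

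In UTX-AID, *Ahr* had 289 and 460 counts at 0 h of RA without IAA and 477 and 437 with IAA. At 3 h the pairs were 240 and 216 against 282 and 261, and at 6 h 278 and 273 against 297 and 270. In CPM the arms overlapped at each time, and the averaged log2 fold change was 0.074 ± 0.116 (adjusted p = 0.836). The overlap of *Ahr* with the antisense gene *Gm48236* cannot be resolved here, since the sources used here do not state whether strand was used in counting.

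In BAP1-AID, *Ahr* fell with RA. Without IAA the log2 change from 0 h was -0.87 ± 0.151 at 3 h (adjusted p = 0.00326) and -0.59 ± 0.15 at 6 h (adjusted p = 0.0176). With IAA it was -0.38 ± 0.148 at 3 h (adjusted p = 0.21) and -0.55 ± 0.149 at 6 h (adjusted p = 0.0264). At 6 h the −IAA result did not pass without replicate 2 at 0 h or without either 6 h library (-0.66 to -0.51, adjusted p = 0.0652 to 0.105), and the +IAA result not without replicate 2 at 0 or 6 h (-0.48 and -0.41, adjusted p = 0.157 and 0.202). At 3 h the difference between the arms, 0.49 ± 0.211, had an adjusted p = 0.642. In UTX-AID, *Ahr* passed lower at 3 h with IAA (-0.77 ± 0.2, adjusted p = 0.0445, not passed without any 1 of the 6 +IAA libraries, -0.79 to -0.75 with adjusted p = 0.0589 to 0.223), and the other 3 changes, -0.61 ± 0.202 and -0.42 ± 0.2 without IAA and -0.64 ± 0.2 at 6 h with IAA, had adjusted p-values of 0.116, 0.314, and 0.0729. The 3 h value without IAA passed when replicate 1 of the −IAA libraries at 0 h was left out (-0.89, adjusted p = 0.0196), and the 6 h value with IAA when either of those 2 libraries was (-0.64, adjusted p = 0.0302 and 0.0342) or with all 24 libraries in one fit (adjusted p = 0.0259).

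*Arnt* (chr3:95341365-95404551, plus strand, 22 exons), the partner that AhR shares with the hypoxia factors, was among the most abundant members. With no library left out it passed no test of IAA or RA in either clone. Its 24 libraries held 3427 to 8278 counts. In BAP1-AID the −IAA libraries lay at 114 to 159 CPM (median 150) and the +IAA libraries at 141 to 163 CPM (median 145). In UTX-AID the arms lay at 79.4 to 103 CPM and 85.3 to 91.4 CPM. At 6 h in this clone the +IAA libraries lay below the −IAA libraries (log2 fold change -0.12 ± 0.0745, adjusted p = 0.845 in edgeR's test). The averaged IAA effect was 0.034 ± 0.0739 on the log2 scale in BAP1-AID (adjusted p = 0.768), and in UTX-AID it was -0.026 ± 0.0431 (adjusted p = 0.847). One −IAA library at 3 h in BAP1-AID (replicate 1) stood low at 5514 counts. With its partner library left out, the averaged effect was 0.14 and the effect at 3 h was 0.32. The RA change at 3 h without IAA was then -0.31, so that passing no test in this clone depends on that partner library.

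*Ahrr* (chr13:74359237-74440462, minus strand, 11 exons), the repressor, was detected at 0 to 62 counts per library. In UTX-AID without IAA it had 8 and 12 counts at 0 h, 3 and 9 at 3 h, and 13 and 4 at 6 h of RA. The +IAA libraries held 62 and 55, 42 and 31, and 16 and 28 counts. All 6 +IAA libraries lay above all 6 −IAA libraries in CPM, which held for 0.602% of 16268 genes tested in this clone. The averaged log2 fold change was 2.04 ± 0.468 (adjusted p = 0.032), and it did not pass with all 24 libraries in one fit (adjusted p = 0.13) or in 8 of 12 fits with a library left out (1.82 to 2.09, adjusted p = 0.0533 to 0.0945). Those were all +IAA libraries except replicate 1 at 6 h, replicate 1 of the −IAA libraries at 0 and 3 h, and replicate 2 at 6 h. At single times it was 2.45 ± 0.799 at 0 h, 2.41 ± 0.829 at 3 h, and 1.28 ± 0.805 at 6 h, with adjusted p-values of 0.42, 0.339, and 0.857. Only 2 of the 6 −IAA libraries held 10 counts or more, against 6 of the 6 +IAA libraries, so the fold of *Ahrr* in UTX-AID rests on few −IAA counts.

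In BAP1-AID, *Ahrr* had 21 and 11, 0 and 14, and 0 and 21 counts at 0, 3, and 6 h without IAA. The +IAA libraries had 17 and 49, 47 and 22, and 37 and 18 counts. The arms overlapped, and the averaged log2 fold change of 1.61 ± 0.791 had an adjusted p = 0.138. Without replicate 2 of the −IAA libraries at 3 h or at 6 h, which leaves a lone library at 0, the value was 3.55 (adjusted p = 0.015) or 3.75 (adjusted p = 0.0217).

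*Cyp1a1* (chr9:57595211-57611107, plus strand, 7 exons) encodes the P450 enzyme that serves as the classical readout of AhR. In BAP1-AID without IAA it had 12 and 15 counts at 0 h of RA, 0 and 7 at 3 h, and 14 and 14 at 6 h. Under IAA its counts were 437 and 524, 403 and 441, and 406 and 456 counts. The lowest +IAA library stood at 7.97 CPM and the highest −IAA library at 0.296 CPM, and the arm means were 9.01 ± 0.995 and 0.203 ± 0.115 CPM (SD, n = 6). The averaged log2 fold change was 5.67 ± 0.229 (adjusted p = 8.41e-08), and it stayed between 5.36 and 7.30 over 19 alternatives. The value at 3 h, 6.92 ± 0.449, rests on −IAA libraries of 0 and 7 counts, whereas those at 0 and 6 h were 5.16 ± 0.369 and 4.92 ± 0.367.

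In UTX-AID, *Cyp1a1* had 0 and 18, 20 and 4, and 10 and 16 counts without IAA at 0, 3, and 6 h of RA. With IAA it had 637 and 446, 519 and 342, and 376 and 265 counts. All +IAA libraries were again above all −IAA libraries, with 5.46 to 12.1 CPM against 0 to 0.463 CPM. The log2 fold change was 5.80 ± 0.634 at 0 h (adjusted p = 0.00126), 4.92 ± 0.608 at 3 h (adjusted p = 0.00158), 4.55 ± 0.601 at 6 h (adjusted p = 0.0215), and 5.09 ± 0.355 averaged (adjusted p = 5.96e-06). The 0 h value rests on −IAA libraries of 0 and 18 counts, and with 1 library left out it ranged from 4.83 to 12.01, and the averaged value from 4.77 to 7.16. At 6 h it did not pass without replicate 2 of the +IAA libraries (4.72, adjusted p = 0.0651) or without replicate 1 or 2 of the −IAA libraries at that time (4.34 and 4.82, adjusted p = 0.0842 and 0.108). The mean level under IAA was 10.5 ± 2.19 CPM at 0 h, 8.11 ± 1.88 at 3 h, and 6.29 ± 1.17 at 6 h (SD, n = 2), and the change from 0 to 6 h of -0.71 ± 0.446 had an adjusted p = 0.487.

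*Cyp1a2* (chr9:57584196-57590986, minus strand, 7 exons), the neighbour of *Cyp1a1* and an enzyme known chiefly from liver, did not show a rise of that size. Its counts in BAP1-AID were 0 and 0, 0 and 10, and 11 and 0 without IAA, and 10 and 7, 3 and 11, and 0 and 0 with IAA. In UTX-AID they were 6 and 0, 4 and 4, and 12 and 10 without IAA, and 18 and 18, 15 and 12, and 7 and 21 with IAA. The arms overlapped in both clones, and 0 counts were found in 4 of 6 −IAA libraries of BAP1-AID but 1 of 6 of UTX-AID. The averaged log2 fold change in UTX-AID was 1.42 ± 0.782 (adjusted p = 0.415), and no fold is given for BAP1-AID, where groups at 0 leave it undefined.

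*Cyp1b1* (chr17:80008966-80022532, minus strand, 3 exons) encodes the related P450 of extrahepatic tissues. In BAP1-AID it had 38 and 75 counts at 0 h of RA, 26 and 33 at 3 h, and 69 and 72 at 6 h without IAA. The +IAA libraries held 525 and 617, 291 and 312, and 454 and 454 counts. The arms were 0.539 to 1.48 CPM and 6.05 to 12.7 CPM and did not overlap. The log2 fold change was 3.35 ± 0.26 at 0 h, 3.40 ± 0.28 at 3 h, 2.67 ± 0.253 at 6 h, and 3.14 ± 0.153 averaged (adjusted p = 2.88e-07).

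In UTX-AID, *Cyp1b1* had 11 and 16, 7 and 5, and 19 and 14 counts without IAA. Under IAA its counts were 215 and 184, 60 and 127, and 124 and 72 counts, all above the −IAA libraries. The log2 fold change was 3.79 ± 0.478 at 0 h (adjusted p = 0.00322), 3.75 ± 0.527 at 3 h (adjusted p = 0.00518), and 3.34 ± 0.283 averaged (adjusted p = 1.77e-05). At 3 h it was 3.44 (adjusted p = 0.0621) without replicate 2 of the −IAA libraries. At 6 h, 2.48 ± 0.463 had an adjusted p = 0.102, and 0.0061 to 0.0481 under 5 alternatives. The dip of *Cyp1b1* at 3 h of RA, from a mean of 11.5 to 6.25 CPM in BAP1-AID with IAA, was -0.85 ± 0.226 on the log2 scale (adjusted p = 0.0462) and did not pass with no filter on low counts (adjusted p = 0.0549), with all 24 libraries in one fit (adjusted p = 0.115), or in 8 of 12 fits with a library left out, which were each +IAA library and each −IAA library at 6 h (-1.02 to -0.71, adjusted p = 0.0536 to 0.289). The change in the other arms at 3 h was -0.89 ± 0.305 in BAP1-AID without IAA, and -1.06 ± 0.59 without and -1.09 ± 0.406 with IAA in UTX-AID, with adjusted p-values of 0.12, 0.437, and 0.229. The value without IAA in BAP1-AID was -1.32 (adjusted p = 0.00854) when replicate 1 of the −IAA libraries at 0 h was left out.

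*Tiparp* (chr3:65435320-65463365, plus strand, 6 exons) encodes the ADP-ribosyltransferase that restrains AhR. In BAP1-AID it had 1659 and 1500, 1799 and 2076, and 2171 and 2122 counts at 0, 3, and 6 h of RA without IAA. With IAA it had 3801 and 3876, 3330 and 3435, and 3727 and 3648 counts. The arms lay at 29.6 to 43.6 CPM and 69.2 to 79.8 CPM, without overlap. The log2 fold change was 1.30 ± 0.0736 at 0 h, 0.85 ± 0.0728 at 3 h, and 0.77 ± 0.0725 at 6 h, and 0.97 ± 0.0421 averaged (adjusted p = 1.03e-07). *Tiparp* has a GC content of 43.4%, below the median of 50.5%, and after the GC and length correction the averaged value was 0.72 (adjusted p = 8.02e-07). The corrected values at 0, 3, and 6 h were 0.98, 0.61, and 0.58 (adjusted p = 2.85e-05, 0.00205, and 0.000458).

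In UTX-AID, *Tiparp* had 4880 and 4735, 4969 and 5385, and 4477 and 5434 counts without IAA. The +IAA libraries held 7942 and 8090, 7793 and 7384, and 7245 and 6507 counts. The arms lay at 97.3 to 115 CPM and 134 to 163 CPM and again did not overlap. The log2 fold change was 0.65 ± 0.0652 at 0 h (adjusted p = 0.000841), 0.35 ± 0.065 at 3 h (adjusted p = 0.0352), 0.41 ± 0.0652 at 6 h (adjusted p = 0.0422), and 0.47 ± 0.0376 averaged (adjusted p = 1.06e-05). At 3 h it did not pass without any 1 library of 3 h or any 1 +IAA library of 6 h (0.31 to 0.39, adjusted p = 0.0608 to 0.288). At 6 h it did not pass without any 1 library of 6 h or any 1 +IAA library (0.37 to 0.46, adjusted p = 0.054 to 0.396). *Tiparp* overlaps 2 noncoding genes on the other strand, *Gm34924* and *Gm38503*, and reads of these cannot be told apart from its own where strand was not used.

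*Nqo1* (chr8:108113835-108129934, minus strand, 6 exons) encodes a quinone reductase that both AhR and the oxidative stress factor NRF2 activate. In UTX-AID it had 3315 and 3085, 2957 and 3089, and 2681 and 3112 counts without IAA. Under IAA its counts were 4743 and 4051, 5160 and 4442, and 4316 and 3981 counts. The arms lay at 59.2 to 69.1 CPM and 81.7 to 93.8 CPM, without overlap. The averaged log2 fold change was 0.43 ± 0.0445 (adjusted p = 0.000118), with 0.37 ± 0.077 at 0 h (adjusted p = 0.107), 0.46 ± 0.0771 at 3 h (adjusted p = 0.0241), and 0.46 ± 0.0773 at 6 h (adjusted p = 0.0562). The values at 0 and 6 h passed with DESeq2 (adjusted p = 0.00356 and 0.000141) and with no filter on low counts (adjusted p = 0.0263 and 0.00304). At 6 h it also passed without any 1 −IAA library of 0 or 3 h (adjusted p = 0.0263 to 0.0355). At 3 h it did not pass with all 24 libraries in one fit (adjusted p = 0.0898) or without either +IAA library of 3 h, replicate 2 of the +IAA libraries at 6 h, or replicate 2 of the −IAA libraries at 3 h (0.39 to 0.51, adjusted p = 0.05 to 0.219).

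In BAP1-AID the arms of *Nqo1* overlapped. Without IAA it had 3743 and 2737 counts at 0 h, 3731 and 2938 at 3 h, and 2686 and 2656 at 6 h, so that replicate 1 at 0 and 3 h stood as high as the +IAA libraries. With IAA it had 3624 and 3578, 3626 and 3603, and 3865 and 4025 counts. The averaged log2 fold change was 0.29 ± 0.0804 (adjusted p = 0.013), or 0.17 (adjusted p = 0.137) after the GC and length correction. At 6 h it was 0.55 ± 0.14 (adjusted p = 0.023), or 0.46 (adjusted p = 0.0669) after that correction and 0.52 to 0.63 (adjusted p = 0.0665 to 0.133) without any 1 of the 4 libraries at 6 h. At 0 and 3 h it was 0.18 ± 0.139 and 0.16 ± 0.139 (adjusted p = 0.437 and 0.517), and the 3 h value was 0.40 (adjusted p = 0.0463) without replicate 1 of the −IAA libraries.

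Over the 8 members, the averaged IAA effect passed higher for 5 and lower for 0 in BAP1-AID (*Ahr*, *Cyp1a1*, *Cyp1b1*, *Tiparp*, and *Nqo1*). In this clone 36.1% of 15695 genes tested passed in either direction and 17.9% passed higher. Of the 5, *Cyp1a1* and *Cyp1b1* were also called, meaning an absolute log2 fold change above 1, where 1.51% of genes were called. The 3 members whose 6 +IAA libraries all lay above the 6 −IAA libraries were *Cyp1a1*, *Cyp1b1*, and *Tiparp*, against 10.2% of genes tested. The median log2 fold change of the members was 0.67, and that of all genes tested was -0.035. The members were chosen with earlier results of these data known, so the shares beside them describe and test nothing.

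In UTX-AID, 5 members passed higher and 0 lower (*Ahrr*, *Cyp1a1*, *Cyp1b1*, *Tiparp*, and *Nqo1*), where 2.62% of 16268 genes passed and 0.861% passed higher. Called were 3 of them (*Ahrr*, *Cyp1a1*, and *Cyp1b1*), against 0.135% of genes. The median was 0.95 over the members and -0.0022 over all genes tested. As in BAP1-AID, the shares only describe, since the members were chosen with earlier results known. At single RA times, 3 members passed at 0 h (*Cyp1a1*, *Cyp1b1*, and *Tiparp*), 4 at 3 h (these and *Nqo1*), and 2 at 6 h (*Cyp1a1* and *Tiparp*), against 0.043%, 0.264%, and 0.0307% of genes. The 3 members at 0 h were all of the 3 genes that passed higher at that time in this clone in edgeR's test. That depends on the setting. In either direction 7 genes passed in that test, 15 after the GC and length correction, and 74 with DESeq2. In BAP1-AID the members that passed were 3 at 0 h (*Cyp1a1*, *Cyp1b1*, and *Tiparp*), 4 at 3 h (these and *Ahr*), and 4 at 6 h (the 3 and *Nqo1*), against 18.5%, 13.3%, and 12.5% of genes. Called members in BAP1-AID numbered 3, 2, and 2 at 0, 3, and 6 h (1.15%, 0.892%, and 1.61% of genes), of which *Tiparp* at 0 h was not called after the GC and length correction (0.98), and those in UTX-AID 2, 2, and 1 (0.0184%, 0.043%, and 0.0123% of genes).

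**Figure D3:**
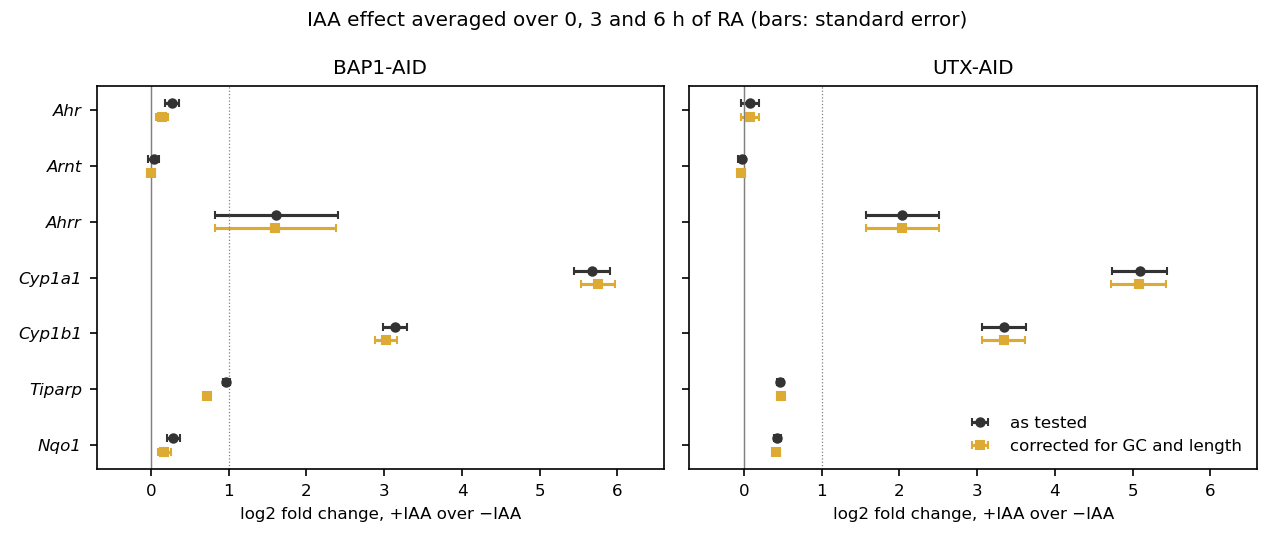
Averaged log2 fold change with IAA for 7 members (x axis) in BAP1-AID (left) and UTX-AID (right), with bars of 1 standard error; circles are as tested and squares after the correction for GC content and length, and the dotted line marks a log2 fold change of 1. *Cyp1a1* stands at 5.67 and 5.09 and *Cyp1b1* at 3.14 and 3.34, and the squares of *Ahr*, *Tiparp*, and *Nqo1* lie left of their circles in BAP1-AID.

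Whether RA altered the rise under IAA was tested as the difference in the RA response between the arms. In edgeR's test 0 of 8 members passed at 3 or 6 h in either clone. Among all genes of BAP1-AID, 0% passed at 3 h and 0.153% at 6 h (0% and 0.0255% called), and of UTX-AID 0.0123% and 0% passed (the same shares called). At an unadjusted p under 0.05, the members numbered 3 and 2 in BAP1-AID at 3 and 6 h and 1 and 1 in UTX-AID. With DESeq2, BAP1-AID had 1 and 1 and UTX-AID 0 and 0 that passed. In BAP1-AID, DESeq2 gave an adjusted p to only 4 of the 8 members at each time. It gave none to *Cyp1a1*, *Cyp1b1*, *Ahrr*, or *Cyp1a2*. The member past the threshold with DESeq2 was *Tiparp* at both times.

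For *Tiparp* in BAP1-AID, the effect of IAA at 3 and 6 h minus that at 0 h was -0.45 ± 0.103 and -0.54 ± 0.102 on the log2 scale. Their unadjusted p-values were 0.0009 and 0.00022, and their adjusted p-values were 0.29 and 0.0804 with edgeR and 0.00768 and 0.000399 with DESeq2. Without replicate 1 or without replicate 2 of the −IAA libraries at 3 h the 6 h difference passed (adjusted p = 0.00539 and 0.00651), as did the 3 h difference without replicate 2 (-0.41, adjusted p = 0.0366). With all 24 libraries in one fit the 6 h difference had an adjusted p = 0.0144, and after the GC and length correction the differences were -0.37 and -0.40 (adjusted p = 0.727 and 0.18). In UTX-AID they were -0.30 ± 0.0919 and -0.24 ± 0.092 (adjusted p = 1 for both). On the linear scale, the step from the −IAA to the +IAA mean in BAP1-AID was 46.2 ± 3.07 CPM at 0 h (SE, n = 2 per arm), 31.4 ± 1.68 at 3 h, and 31.2 ± 1.23 at 6 h. The same steps in UTX-AID were 57.4 ± 6.59, 31.1 ± 3.22, and 33.2 ± 3.94 CPM. Without IAA *Tiparp* of BAP1-AID rose with RA by 0.35 ± 0.0735 at 3 h (adjusted p = 0.0117, or 0.30 with an adjusted p = 0.0989 without replicate 2 at 0 h) and 0.49 ± 0.0734 at 6 h (adjusted p = 0.000594), and with IAA its changes were -0.10 ± 0.0716 and -0.042 ± 0.0715 (adjusted p = 0.568 and 0.79).

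For *Cyp1a1*, the difference in the RA response was 1.75 ± 0.707 at 3 h (adjusted p = 0.621) and -0.24 ± 0.562 at 6 h (adjusted p = 0.94) in BAP1-AID. The 3 h value becomes 6.59 (adjusted p = 0.014) when replicate 2 of the −IAA libraries at 3 h is left out, since the remaining one has 0 counts. In UTX-AID it was -0.88 ± 0.957 and -1.26 ± 0.948 (adjusted p = 1 for both), with ranges of -7.09 to 0.79 and -7.46 to -0.28 when 1 library was left out. For *Cyp1b1* the differences in BAP1-AID were 0.043 ± 0.36 and -0.68 ± 0.354 (adjusted p = 1 and 0.561), and UTX-AID had -0.034 ± 1.2 and -1.31 ± 0.656 (adjusted p = 1 for both). Differences of 1.75 for *Cyp1a1* in BAP1-AID and -1.31 for *Cyp1b1* in UTX-AID (log2) thus did not pass. With 2 libraries per group, differences of such sizes could be missed, so these tests do not show that RA left the rise unaltered.

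**Figure D4:**
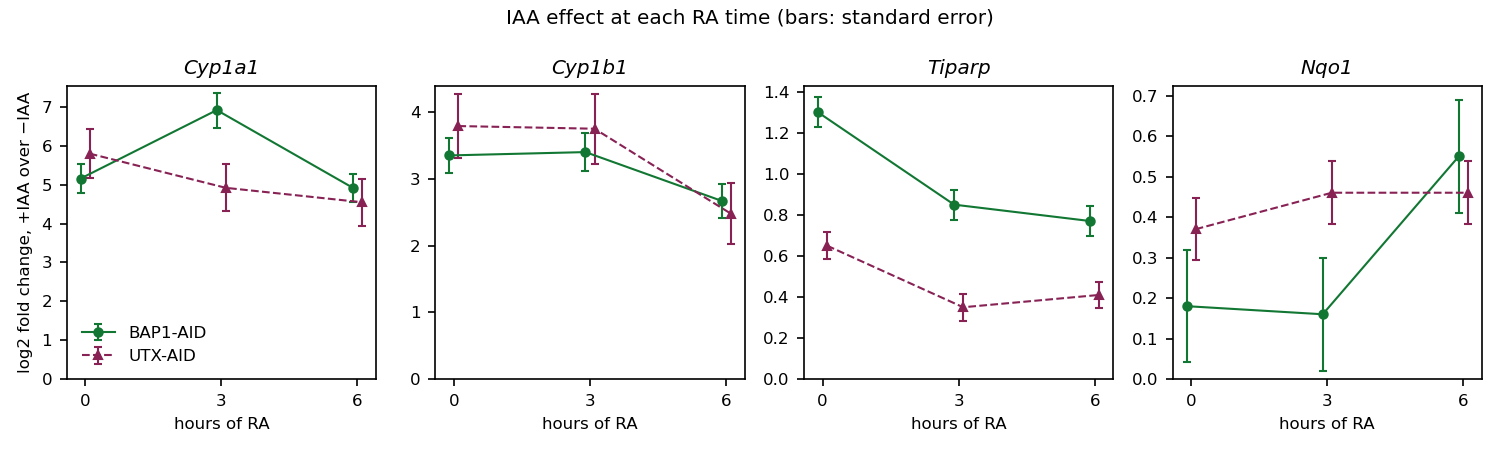
Log2 fold change with IAA (y axis, from 0, scaled to each gene) of 4 targets at 0, 3, and 6 h of RA, with bars of 1 standard error; circles and solid lines are BAP1-AID, triangles and dashed lines UTX-AID. *Tiparp* goes from 1.30 to 0.77 in BAP1-AID and from 0.65 to 0.41 in UTX-AID, and the bars of *Cyp1a1* and *Cyp1b1* in the clones meet at 0 and 6 h.

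The cells were kept with leukemia inhibitory factor before RA and without it under RA, so that RA and loss of this factor cannot be told apart in the changes from 0 h. Without IAA, these changes passed for 2 members at each time in BAP1-AID, with *Tiparp* higher and *Ahr* lower, where 7.37% and 15.9% of genes passed at 3 and 6 h. Of the UTX-AID libraries without IAA, 0 members passed in edgeR's test at either time, where 4.84% and 6.9% of genes passed, with 2 and 0 at an unadjusted p under 0.05 and 0 and 0 with DESeq2. With IAA, 1 member passed at each time in BAP1-AID (*Cyp1b1* at 3 h and *Ahr* at 6 h, against 6.52% and 15.4% of genes). In UTX-AID *Ahr* passed at 3 h, and 0 members passed at 6 h (3 at an unadjusted p under 0.05, and 0 with DESeq2), against 3.57% and 6.45% of genes. Called were 0 members in any of these RA responses in edgeR's test, where the share of genes called was 2.25%, 4.1%, 2.41%, and 4.51% in BAP1-AID (3 and 6 h without IAA, then with IAA) and 1.51%, 1.91%, 1.26%, and 2% in UTX-AID.

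The clones differed in the size of the IAA effect for 1 member. In a fit of all 24 libraries, the averaged effect in UTX-AID minus that in BAP1-AID was -0.52 ± 0.0577 for *Tiparp* (adjusted p = 5.19e-07, where 25.9% of 16816 genes passed and 2.22% were called), and -0.25 (adjusted p = 0.00274) after the GC and length correction. The steps in CPM given above were of similar size in the clones at 3 and 6 h, on a −IAA level that was higher in UTX-AID. For *Cyp1a1* the difference was -0.59 ± 0.538 (adjusted p = 0.489), for *Cyp1b1* 0.18 ± 0.308 (adjusted p = 0.772), for *Nqo1* 0.12 ± 0.0956 (adjusted p = 0.427), for *Ahr* -0.22 ± 0.149 (adjusted p = 0.324), and for *Ahrr* 0.42 ± 0.945 (adjusted p = 0.854). The passing of *Ahr* in BAP1-AID and of *Ahrr* in UTX-AID alone is therefore not shown to be a difference between the clones.

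Levels without IAA differed between the clones for 4 members, where 67.3% of 16816 genes passed and 24.6% were called. *Tiparp* was higher in UTX-AID by 1.50 ± 0.0418 (log2, adjusted p = 7.01e-19), or 0.93 after the GC and length correction. *Cyp1b1* was lower there (-2.04 ± 0.259, adjusted p = 2.56e-07), as were *Ahr* (-0.65 ± 0.106, adjusted p = 8.99e-06) and *Arnt* (-0.65 ± 0.0638, adjusted p = 4.24e-09). *Nqo1* differed by 0.077 ± 0.0679 (adjusted p = 0.328), or 0.16 (adjusted p = 0.0161) without replicate 1 of the BAP1-AID −IAA libraries at 3 h, and turned to -0.35 (adjusted p = 0.000129) after that correction. Each line is 1 clone, so the clone and the tagged protein cannot be told apart in these differences.

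The following lists hold other genes of the pathway and genes related to it. In edgeR's test 0 of them was called for the IAA effect in either clone, at single RA times or averaged. *Cyp1a1* and *Cyp1b1* were called for the averaged effect in both clones. In BAP1-AID the list counts stand beside 36.1% of all genes that passed for the averaged effect, and in UTX-AID beside 2.62%. Of 5 members of the cytosolic complex, 2 passed higher and 2 lower in BAP1-AID (1 and 1 after the GC and length correction), with the chaperone *Hsp90aa1* at 0.56 ± 0.0375 (adjusted p = 9.85e-07). In UTX-AID 1 passed, the kinase *Src*, at -0.33 ± 0.0742 (adjusted p = 0.0288). Of 10 tested bHLH-PAS relatives, 2 passed higher and 2 lower in BAP1-AID (0 and 2 after the correction); the hypoxia factor *Hif1a* was at 0.43 ± 0.0458 (adjusted p = 1.99e-05), and at 0.051 (adjusted p = 0.278) after the GC and length correction. In UTX-AID *Epas1*, its relative, was the 1 that passed (-0.32 ± 0.0538, adjusted p = 0.00562). Of 10 coactivators and corepressors, 5 passed higher in BAP1-AID (also 5 after the correction), among them *Nrip1* at 0.47 ± 0.0674 (adjusted p = 0.000201) and 0.20 (adjusted p = 0.0436) after the correction. In UTX-AID 0 of the 10 passed in edgeR's test (3 at an unadjusted p under 0.05, 1 with DESeq2).

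Among 16 further genes known as AhR targets, 8 passed the filter. *Nfe2l2*, the gene of NRF2, passed higher in both clones, at 0.36 ± 0.0439 in BAP1-AID (adjusted p = 5.69e-05) and, in UTX-AID, at 0.31 ± 0.0588 (adjusted p = 0.0119). The cell cycle inhibitor gene *Cdkn1b* passed in UTX-AID (0.24 ± 0.0444, adjusted p = 0.0106). In BAP1-AID 2 passed lower, *Aldh3a1* (-0.72 ± 0.25, adjusted p = 0.0416) and the amino acid transporter gene *Slc7a5* (-0.20 ± 0.0461, adjusted p = 0.00509), and neither passed after the correction. The medians of the 8 were 0.015 and 0.036. Of 12 NRF2 targets, 3 passed higher in UTX-AID, the antioxidant genes *Srxn1* (0.40 ± 0.0687, adjusted p = 0.0068) and *Gclc* (0.17 ± 0.039, adjusted p = 0.0333) and the exporter gene *Abcc1* (0.21 ± 0.0415, adjusted p = 0.0144). In BAP1-AID 2 of the 12 passed higher and 2 lower (3 and 2 after the correction). *Gclc* passed higher there too, at 0.25 ± 0.0875 (adjusted p = 0.0429) and 0.24 (adjusted p = 0.0227) after the correction. Heme oxygenase *Hmox1* passed lower, at -0.27 ± 0.05 (adjusted p = 0.00139) and -0.088 (adjusted p = 0.0734) after the correction. The other lower gene was *Gstm1*, at -0.28 ± 0.0707 (adjusted p = 0.00838) and -0.094 (adjusted p = 0.344) after the correction.

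Of 12 HIF targets, which share the partner ARNT, 3 passed higher and 2 lower in BAP1-AID (4 and 0 after the correction), with the growth factor gene *Vegfa* at 0.35 ± 0.0807 (adjusted p = 0.00537). In UTX-AID 0 of them passed in edgeR's test (4 at an unadjusted p under 0.05, 0 with DESeq2). Of 5 tested genes of other xenobiotic metabolism, 2 passed lower in BAP1-AID, the reductase genes *Por* (-0.21 ± 0.0528, adjusted p = 0.00908) and *Cyb5r3* (-0.18 ± 0.0355, adjusted p = 0.00168), neither after the correction. In UTX-AID *Cyb5r3* passed higher (0.20 ± 0.0412, adjusted p = 0.0221).

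The genes whose pattern was most like that of the P450 members were listed by Pearson's r of log2 CPM across the 24 libraries, after the mean of each clone at each RA time was subtracted, among 16815 other genes. For *Cyp1a1* these were *Cyp1b1* (r = 0.964), *Plekhh2* (0.889), *Tiparp* (0.887), *Rrm2* (0.883), and *Ssr1* (0.881). For *Cyp1b1* they were *Cyp1a1*, *Rrm2* (0.928), *Tiparp* (0.905), *Nfe2l2* (0.902), and *Plekhh2* (0.895). *Nqo1* stood at rank 220 for *Cyp1a1* (r = 0.743), *Ahrr* at 136 (0.768), *Ahr* at 611 (0.669), and *Arnt* at 5836 (0.17). The points share the IAA arms and the libraries, so these values describe and test nothing. *Plekhh2* had a log2 fold change with IAA of 0.76 ± 0.104 in BAP1-AID (adjusted p = 0.000128) and 0.74 ± 0.113 in UTX-AID (adjusted p = 0.00269), and *Rrm2*, a subunit of ribonucleotide reductase, 0.19 ± 0.0336 and 0.31 ± 0.0443 (adjusted p = 0.000907 and 0.00163).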

How the data were processed

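RNA-seq libraries of 2 AID-tagged ESC clones were analysed (24 libraries, 12 groups of 2), and groups and replicate numbers were taken from the titles in the labels. The authors aligned reads to mm39 with HISAT2 (2.2.1), used Samtools (1.19), and deposited estimated counts per gene from StringTie (2.2.1), whole numbers without normalization. StringTie derives these from transcript coverage, so they are not direct counts of reads. Each standard error of a log2 fold change was back-calculated, as the absolute log2 fold change divided by the square root of its quasi-likelihood F statistic. Such values cover at best the spread between these libraries, and are unreliable for small changes and low counts. For *Cyp1b1* in UTX-AID, the difference in the 3 h RA response (-0.034) has a standard error of 1.2. The IAA effects that it compares have 0.478 and 0.527. The annotation, strandedness, and read length are not given in the sources used here.

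Genes were kept by filterByExpr of edgeR (4.0.16; minimum count 10, minimum total 15) in R 4.3.3, scaled by TMM, and tested with edgeR's quasi-likelihood test per clone (12 libraries), with Benjamini-Hochberg adjustment over all genes tested; differences between clones used all 24 libraries in one fit. Passed means an adjusted p below 0.05, and called adds an absolute log2 fold change above 1. CPM are counts scaled to 1000000 of the TMM-adjusted total. The GC and length correction enters, per library, splines (5 degrees of freedom) as offsets. Alternatives were DESeq2 (1.42.0), RLE scaling, no filter, a replicate block, 1 fit of all 24 libraries, and each library left out. The fits were tested on simulated counts. These left out genes of low total count and gave all genes the same spread and all changes the same size. They do not show how the fits behave for groups without counts.

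The members, gene lists, and tests were chosen with earlier results of these data known. The rule for named genes covers the 8 members, at most 3 genes per list and clone with the smallest adjusted p for the averaged IAA effect, any list gene called in an IAA comparison, and the 5 genes most like *Cyp1a1* and *Cyp1b1*. The rule also covers 1 gene that is not reported here. GENCODE vM39 gave coordinates (GRCm39) and lengths, and RefSeq the starts; of 26264 genes, 23897 matched GENCODE by symbol. Tables and plots came from Python 3.11.15 with pandas 2.3.3, numpy 2.4.6, and matplotlib 3.10.9.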

Additional observations from a re-analysis of the deposited data

Results flagged for a closer look

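One result differed between the clones by a test of the difference itself. The averaged IAA effect on *Tiparp* in UTX-AID minus that in BAP1-AID was -0.52 on the log2 scale (adjusted p = 5.19e-07 with edgeR's quasi-likelihood test over 24 libraries), where the effects were 0.97 in BAP1-AID and 0.47 in UTX-AID. All 6 +IAA libraries lay above all 6 −IAA libraries in each clone. The difference was -0.25 (adjusted p = 0.00274) after the GC and length correction. Groups of 2 libraries are too small for a check of single outlying values.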

How the results depend on the processing

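Across 176 values of the members, 141 kept their side of the threshold under every alternative run. Of 3498 values under the alternatives, 108 took another sign without passing on either side. The sign also changed for *Nqo1* between the clones without IAA, where 0.077 did not pass and became, past the threshold, -0.35 with the GC and length correction and -0.34 with that correction and the replicate block. The numbers of the replicates showed no pairing of the libraries over all genes of the fit. After the group means were removed, same-numbered libraries correlated at -0.0224 to 0.0566 in BAP1-AID and -0.00918 to 0.0742 in UTX-AID. These values do not test pairing for single members. With the replicate block, the members passed (called) for IAA at 6 h in UTX-AID numbered 4 (2) in place of 2 (1), as they did with DESeq2, with no filter on low counts, and with the GC and length correction and replicate block; all 24 libraries in one fit gave 2 called. The block also took *Nqo1* at 0 h in UTX-AID past the threshold (adjusted p = 0.0164), as did the correction with the block (adjusted p = 0.0133), and changed no other call of a member. The correction for GC content and length, with or without the block, gave 3 passed in place of 5 for the averaged IAA effect in BAP1-AID and 1 called in place of 2 for the clones without IAA. DESeq2 gave 1 passed in place of 0 for the altered RA response in BAP1-AID at 3 and at 6 h, 1 called in place of 0 for RA at 3 h without IAA in BAP1-AID (*Cyp1a1*, adjusted p = 0.0404), and 1 called in place of 2 for IAA at 0 h in UTX-AID, where it gives *Cyp1b1* no adjusted p. All 24 libraries in one fit gave 1 in place of 0 for the altered RA response at 6 h in BAP1-AID, 0 in place of 1 for RA at 3 h with IAA in BAP1-AID (0 also with no filter), and 1 in place of 0 for RA at 6 h with IAA in UTX-AID (1 also with the correction and the block). RLE in place of TMM changed no call. The cause of these changes was not tested.

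With 1 library left out, the ranges in BAP1-AID were 4 to 7 passed and 2 to 4 called for the averaged IAA effect, 0 to 2 passed and 0 to 1 called for the altered RA response at 3 h and 0 to 1 passed at 6 h, 1 to 4 passed and 0 to 2 called for RA at 3 h without IAA, 1 to 2 passed at 6 h without IAA, and 0 to 1 passed at 3 h and at 6 h with IAA. In UTX-AID they were 1 to 4 passed and 1 to 2 called for IAA at 3 h, 0 to 3 passed and 0 to 1 called at 6 h, and 0 to 1 passed for RA at 3 h without IAA and at 3 and 6 h with IAA. A lone library left in a group is assumed to vary like the other groups. With 2 libraries per group and few counts, effects on *Ahrr* and *Cyp1a2* are poorly bounded, and depth limits any fold against libraries at 0.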
